A study of Mus musculus with 4 samples.

Results

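Fibroblast growth factors (FGFs), their receptors and the feedback genes of the pathway were followed on 4 mouse arrays. They were chosen by gene name alone: every gene probe named for a numbered Fgf, for Fgfr1 to Fgfr4 or Fgfrl1, for a Sprouty (Spry) or Spred gene, or for Dusp4, Dusp6, Etv4, Etv5 or Egr1. This gave 67 of 41174 gene probes, which stood for 38 genes. Of these, 46 probes of 30 genes could be tested, among 24874 tested probes on the whole array. Fgf4 had no probe under that name in the files and was not analysed here.

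Secreted FGFs bind receptor tyrosine kinases together with heparan sulfate and switch on the Ras and MAP kinase cascade. The cascade induces its own inhibitors (Sprouty and Spred proteins, MAP kinase phosphatases such as Dusp6) and transcription factors such as Egr1, Etv4 and Etv5, so transcripts of these genes are widely used as a readout of the pathway. In mouse ES cells, FGF signalling through MAP kinase is known for priming cells to leave self-renewal, and Fgf5 marks the primed epiblast.

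RNA came from an induced pluripotent stem (iPS) cell clone harvested 30 days after transduction, from mouse embryonic fibroblasts (MEFs) taken after several passages, and from the mouse embryonic stem (ES) cell line CGR8.8. ES and iPS cells were grown with 1000 IU/ml leukemia inhibitory factor (LIF), which holds them undifferentiated. The iPS group was 1 clone, and the labels name neither the transduced factors nor the number of embryos behind the MEFs. Red dye (Cy5) marked iPS RNA on 2 arrays and MEF RNA on 2 arrays, and green dye (Cy3) marked ES RNA on all 4. Values are therefore log2 ratios of red over green, where 0 is the level of ES cells, 1 is 2-fold higher and -1 is 2-fold lower. Errors are standard errors (SE) of a linear model fitted with limma over all tested probes (n = 2 arrays per group), and p-values were adjusted over all of them by the Benjamini-Hochberg method. Calls required both an adjusted p under 0.05 and a difference of 2-fold or more. The adjusted p from limma was under 0.05 for 79.8% of all tested probes in iPS cells over MEFs. It was so for 78.1% in iPS over ES cells and 82.5% in MEFs over ES cells. A small adjusted p therefore does not by itself set a gene apart. Since no dye swap was made, a dye effect on a probe is part of its ratios over ES cells; it drops out of the difference between iPS cells and MEFs. The labels name biological replicates without saying whether these were separate cultures, and p-values therefore cover the spread of these arrays, some of which may be technical.

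Between 61.6% and 63.5% of spots were well above background in red and between 62.6% and 64.0% in green. Across probes, which are not independent, replicate arrays correlated at 0.992 (iPS) and 0.989 (MEF). The cell type markers went with the labels in part. The 8 pluripotency markers summed to normalized intensities of 50468 to 51980 on the iPS arrays, 1113 to 1266 on the MEF arrays and 23130 to 25248 in ES cells. Of them, 5 were called higher in iPS than in ES cells (Nanog at 2.27), Pou5f1 was called lower (-1.35), and Zfp42 (-0.60) and Tdgf1 (0.57) were not called. All 8 were called lower in MEFs than in ES cells, but remained well above background on both MEF arrays. The 8 fibroblast markers summed to 2101 to 2107 on the iPS arrays, 518686 to 524108 on the MEF arrays and 23082 to 32917 in ES cells. Of these, 7 were called lower in iPS than in ES cells, and Col3a1 and Lox were not well above background on either iPS array. The 6 trophoblast markers summed to 11215 to 11997 on the iPS arrays, 445 to 496 on the MEF arrays and 2657 to 2909 in ES cells. Of these 6, 2 were called higher in iPS than in ES cells (Esx1 at 3.61 and Tfap2c at 2.56), Cdx2 was called lower (-3.32) and 3 were not called. The 7 macrophage markers summed to 1006 to 1036 in iPS cells, 7850 to 8318 in MEFs and 1530 to 1606 in ES cells, with 2 called lower and 5 not called in iPS over ES cells. Of the macrophage markers, Emr1 and Ptprc were well above background on no iPS array and on no array in ES cells. For 7 tested primitive endoderm markers the sums were 2402 to 2407 in iPS cells, 13959 to 14335 in MEFs and 3317 to 3383 in ES cells, with 1 called lower and 6 not called in iPS over ES cells. For 4 tested endothelial markers they were 896 to 915 in iPS cells, 3831 to 4045 in MEFs and 2538 to 2597 in ES cells, where in iPS over ES cells 2 were called higher and Kdr lower (-4.10). For 3 tested markers of the primed epiblast they were 8462 to 8895 in iPS cells, 938 to 993 in MEFs and 20254 to 23999 in ES cells. The part of these cell types in the results below was not tested, and in bulk RNA fewer cells of a type cannot be told apart from less RNA per cell.

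The probes of Fgfr4 are shown first because they gave opposite directions. On the array's coordinates (mouse build mm8, plus strand), the probe A_51_P408100 lies at chr13:55178238-55178297 and is annotated to the RefSeq Fgfr4 transcript. The others lie upstream, at chr13:55177486-55177545 and chr13:55177621-55177680, and are annotated by the array to a splice variant of Fgfr4. Both are printed 5′ to 3′. Capitals mark GGTAA in the first, letters with the GT that most introns begin with, and TTGCAG in the second, letters with the AG that most introns end with.
A_52_P686383: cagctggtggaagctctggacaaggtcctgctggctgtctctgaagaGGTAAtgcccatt
A_52_P144363: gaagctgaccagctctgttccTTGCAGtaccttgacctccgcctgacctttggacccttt
Read on the printed strand only, GGTAA occurs in 3.9% and TTGCAG in 1.8% of the 41174 gene probes. A match describes letters only.

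Promoter windows of 4 ligand genes are shown because Fgf7 and Fgf10 were the ligands called higher in MEFs, and because Fgf5 and Fgf21 were the called ligands whose window holds TATAAA, the letters of the TATA box. The windows run from 250 bases before to 50 bases after the start of transcription, and come from RefSeq on GRCm38.p6, a build other than that of the probes. They lie at chr2:126034408-126034707 (plus strand) for Fgf7, chr13:118714449-118714748 (plus) for Fgf10, chr5:98253934-98254233 (plus) for Fgf5 and chr7:45615441-45615740 (minus) for Fgf21. Capitals mark TATAAA and GGGCGG, the letters of the GC box, on both strands. The motifs do not overlap.
Fgf7: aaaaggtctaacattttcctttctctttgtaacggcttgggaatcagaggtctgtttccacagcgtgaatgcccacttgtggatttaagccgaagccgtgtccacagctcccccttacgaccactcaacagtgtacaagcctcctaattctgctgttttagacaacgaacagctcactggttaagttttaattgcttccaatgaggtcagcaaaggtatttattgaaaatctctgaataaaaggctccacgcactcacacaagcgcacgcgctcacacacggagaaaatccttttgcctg
Fgf10: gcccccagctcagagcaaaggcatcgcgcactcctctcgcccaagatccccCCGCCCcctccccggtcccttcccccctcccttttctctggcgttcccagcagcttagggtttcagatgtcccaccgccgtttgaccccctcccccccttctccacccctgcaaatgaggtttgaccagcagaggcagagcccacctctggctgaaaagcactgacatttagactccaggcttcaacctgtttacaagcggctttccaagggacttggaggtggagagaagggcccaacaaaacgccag
Fgf5: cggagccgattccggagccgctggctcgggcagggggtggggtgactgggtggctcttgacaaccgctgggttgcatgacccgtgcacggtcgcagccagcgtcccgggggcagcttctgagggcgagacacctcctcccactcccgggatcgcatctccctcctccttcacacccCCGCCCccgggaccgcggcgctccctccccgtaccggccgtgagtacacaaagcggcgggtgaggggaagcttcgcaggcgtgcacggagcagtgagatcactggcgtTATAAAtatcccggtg
Fgf21: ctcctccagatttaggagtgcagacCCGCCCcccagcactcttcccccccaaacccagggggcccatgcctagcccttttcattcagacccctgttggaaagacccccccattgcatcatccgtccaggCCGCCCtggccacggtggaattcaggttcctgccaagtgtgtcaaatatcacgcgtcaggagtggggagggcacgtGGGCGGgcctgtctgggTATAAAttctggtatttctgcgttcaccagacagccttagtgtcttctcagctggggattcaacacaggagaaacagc
The window of Fgf7 holds neither motif, and that of Fgf10 holds 1 GC box. TATAAA begins 28 bases before the start of Fgf21 and 34 bases after the start of Fgf5. Of the 38 genes, 26 had at least 1 window, and the motif TATAAA was found for 3 of them (Fgf5, Fgf13 and Fgf21) and GGGCGG for 18. Among all 32851 windows, 13.6% held TATAAA and 35.7% held GGGCGG. These shares are by window, while the members were counted by gene over any of their 34 windows. The counts are therefore not directly comparable with the shares. A match is a description of letters and not a binding site.

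Compared with MEFs, iPS cells had lower transcript levels of several FGF ligands, of Fgfr1 and Fgfr2, and of the feedback genes Egr1, Dusp4 and Spry1. They had higher levels of Etv5 and of the RefSeq Fgfr4 transcript. Of the 30 genes, each by its brightest tested probe, 9 were called lower, 2 higher and 19 were not called. By probe, 13 of 46 were lower and 3 higher, against 17.7% lower and 15.4% higher among all tested probes. Members called in either direction were thus 34.8% of the members and 33.1% of all probes, and the members' split was 28.3% lower and 6.52% higher. The median log2 ratio of the members was -0.38 and that of all tested probes 0.01. With the background model fitted over all spots, outlier-marked ones included, 4 probes were lower and 1 higher. Of all 24874 tested probes, 1420 were then lower and 1224 higher, 10.6% in total. The calls of Fgf7 (-1.71), Fgf10 (-1.19), Fgfr2 (-0.69), Spry1 (-0.69), Dusp4 (-2.30, further from 0 than as reported) and Etv5 (1.43) were lost there.

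Compared with ES cells, iPS cells had lower levels of the ligands Fgf5, Fgf8, Fgf17, Fgf18 and Fgf21 and of the feedback genes Egr1, Dusp4, Dusp6, Spred1 and Spred3, and Fgfr4 was the gene called higher. Of 30 genes, 10 were called lower, 1 higher and 19 were not called. Of 46 probes, 11 (23.9%) were lower and 1 (2.17%) higher, against 10.7% lower and 8.00% higher among all tested probes. The total was 26.1% of the members against a background of 18.7%. The members' median was -0.30, beside -0.01 for all tested probes.

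Compared with ES cells, MEFs had higher Fgf7, Fgf10 and Spry1 and lower Fgf8, Fgf15, Fgf17, Fgf21, Dusp4, Dusp6 and Etv5. This made 3 genes higher, 7 lower and 20 not called. By probe, 4 of 46 were higher and 9 lower, against 12.8% higher and 12.4% lower among all tested probes. Members were called at 28.3%, near the background of 25.2%. The members' median was -0.09, and that of all tested probes -0.01. Both comparisons with ES cells share the green channel's RNA, so their values are given side by side and not as independent results. With the background model fitted over all spots, limma called 0 of the 46 probes in MEFs over ES cells and 3 had an unadjusted p under 0.05. It also called 0 of all 24874 tested probes there, of which 2392 had an unadjusted p under 0.05. The log2 ratios over ES cells of the called genes then stood at 2.08 for Fgf7, 0.95 for Fgf10 and 0.94 for Spry1. They stood at -2.90 for Fgf8, -0.57 for Fgf15, -1.06 for Fgf17, -0.78 for Fgf21, -1.45 for Dusp4, -2.65 for Dusp6 and -0.59 for Etv5.

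**Figure D1:**
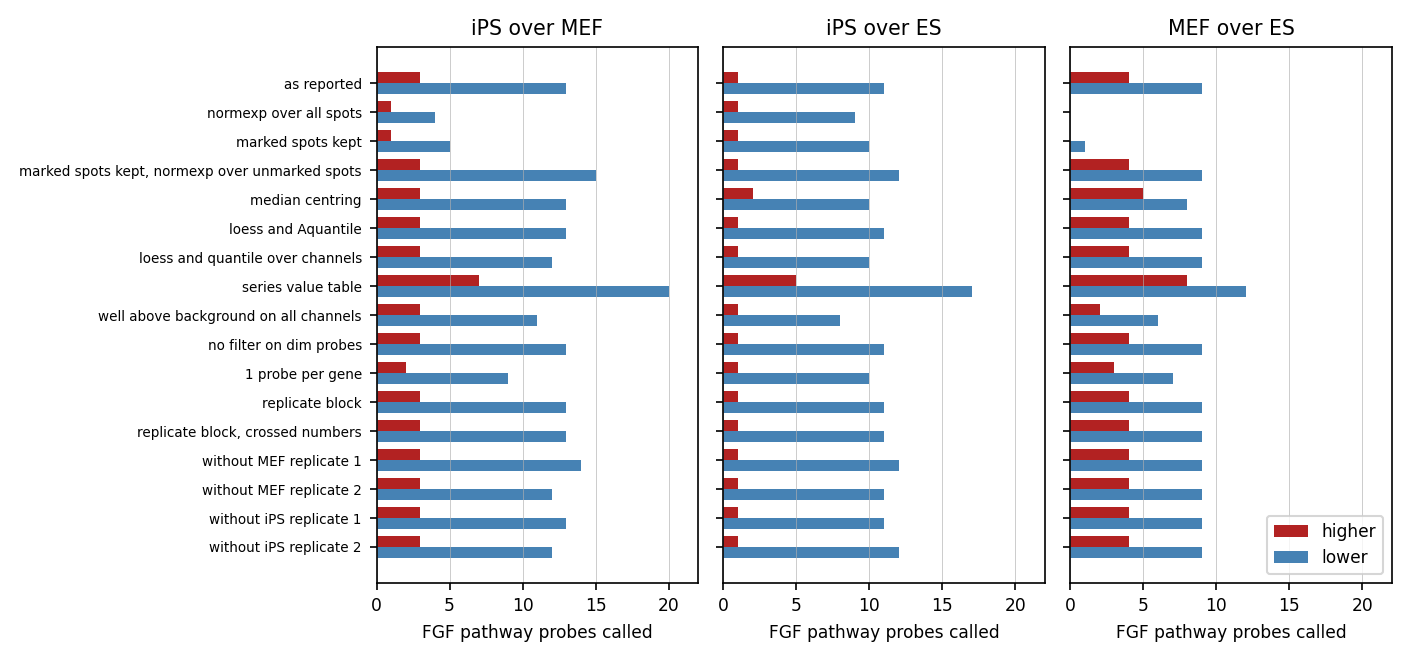
Number of FGF pathway probes called higher (red) and lower (blue) under the reported processing (top) and 16 alternatives, for the 3 comparisons. The bars of MEFs over ES cells are at 0 and 0 with the background model fitted over all spots, and at 4 and 9 as reported. With that model, 0 of all 24874 tested probes were called in MEFs over ES cells.

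**Figure D2:**
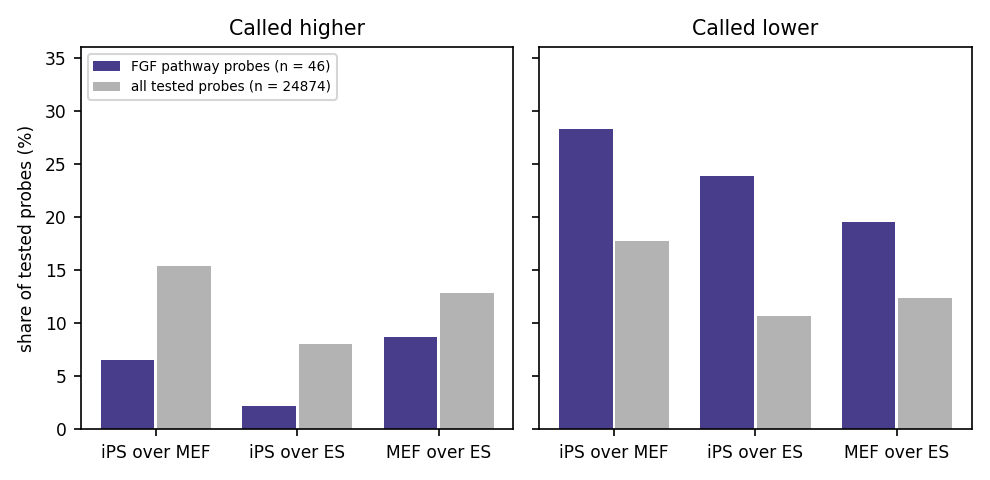
Share of tested probes called higher (left) or lower (right), in percent, for 46 FGF pathway probes (purple) and all 24874 tested probes (grey) in the 3 comparisons. In each comparison the FGF pathway bars are below the grey bars for higher and above them for lower, for example 23.9% against 10.7% lower in iPS over ES cells.

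**Figure D3:**
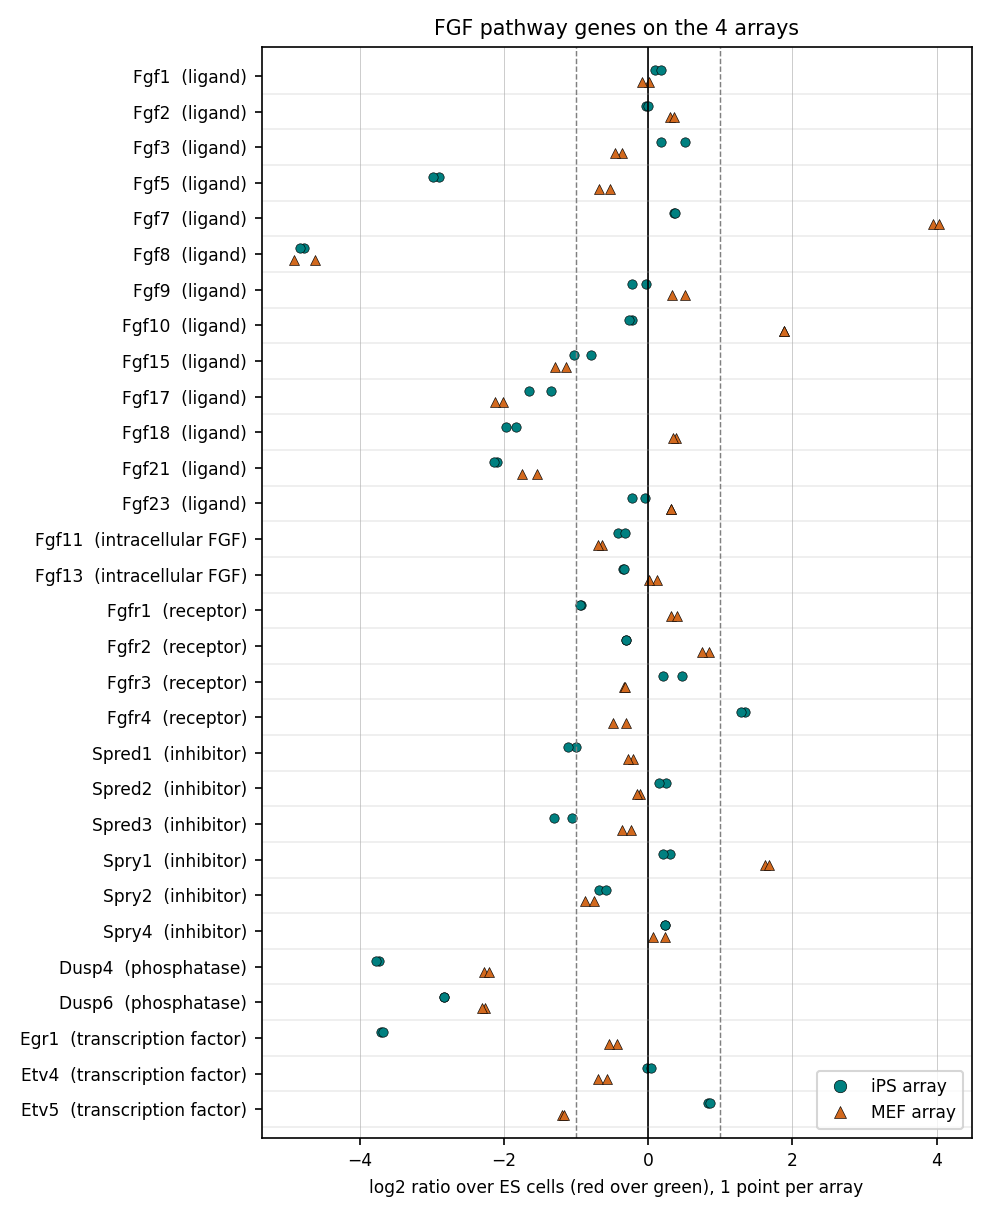
Log2 ratio over ES cells of the brightest tested probe of 30 FGF pathway genes, with 1 point per array (circles iPS, triangles MEF) and dashed lines at 2-fold. Fgf7 and Fgf10 stand to the right on the MEF arrays, Fgf5, Fgf18 and Egr1 to the left on the iPS arrays, and Fgf8 and Dusp6 to the left on all 4.

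Among the secreted ligands, Fgf8, which patterns the early embryo and its limbs and brain, stood furthest below ES cells on all arrays. Its brighter probe (chr19:45790185-45790244, mm8) read -4.77 and -4.82 on the iPS arrays, and -4.91 and -4.62 on the MEF arrays. The iPS values lie within the range of the MEF values. This was 27.7-fold lower in iPS than in ES cells (-4.79 ± 0.073, adjusted p = 7.43e-09 in limma) and 27.2-fold lower in MEFs than in ES cells (-4.77 ± 0.073, adjusted p = 5.75e-09). Between iPS cells and MEFs the difference was -0.03 ± 0.10 (adjusted p = 0.809), with a 95% interval of -0.27 to 0.22. This closeness depended on the background model: fitted over all spots, it gave -2.90 in MEFs over ES cells, not called, and -1.89 in iPS cells over MEFs (adjusted p = 0.376). A second Fgf8 probe gave smaller values of the same sign, -1.80 and -1.72 on the iPS arrays and -2.11 and -1.98 on the MEF arrays.

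Fgf5 and Fgf18 were low in the iPS clone alone among the 3 RNAs. Fgf5, which marks the primed epiblast (probe at chr5:98517263-98517322), read -2.90 and -2.98 on the iPS arrays and -0.53 and -0.69 on the MEF arrays, so the groups did not overlap. It was 7.67-fold lower in iPS than in ES cells (-2.94 ± 0.057, adjusted p = 1.60e-08) and 5.03-fold lower in iPS cells than in MEFs (-2.33 ± 0.080, adjusted p = 1.75e-07). In MEFs over ES cells it stood at -0.61 ± 0.057 and was not called. Of the 3 tested primed epiblast markers other than Fgf5, Pou3f1 was lower in iPS than in ES cells (-3.27), while Otx2 (0.41) and Dnmt3b (0.86) were not called.

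Fgf18, a ligand of bone and lung development (probe at chr11:33017441-33017500), read -1.83 and -1.97 on the iPS arrays, against 0.39 and 0.34 on the MEF arrays. The arrays of the 2 groups lay on opposite sides of the ES level. It was 3.74-fold lower in iPS than in ES cells (-1.90 ± 0.054, adjusted p = 7.86e-08) and 4.82-fold lower in iPS cells than in MEFs (-2.27 ± 0.076, adjusted p = 1.52e-07). The value in MEFs over ES cells, 0.37 ± 0.054, was under 2-fold.

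Fgf7 (keratinocyte growth factor) and Fgf10 are ligands that mesenchymal cells send to epithelia, and both were high in MEFs. Fgf7 (chr2:125780852-125780911) read 0.37 and 0.38 on the iPS arrays and 3.94 and 4.04 on the MEF arrays. It was not well above background in ES cells on any array, so the ES level is only a bound, and Fgf7 was at least 15.9-fold higher in MEFs than in ES cells (adjusted p = 3.74e-09). With the background model fitted over all spots the fitted fold was 4.22 and not called (adjusted p = 0.356). It was 12.3-fold lower in iPS cells than in MEFs (-3.62 ± 0.069, adjusted p = 1.42e-08), and 3.27-fold and not called in that setting. Such bounds set the bright group's mean intensity against the lowest intensity well above background, or the dim probe's own where that was higher.

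Fgf10 (chr13:119910431-119910490) read -0.22 and -0.27 on the iPS arrays, against 1.89 and 1.88 on the MEF arrays. The groups were on opposite sides of the ES level, and Fgf10 was 3.69-fold higher in MEFs than in ES cells (1.89 ± 0.047, adjusted p = 3.30e-08). Its signal was not well above background on either iPS array. The fitted difference of iPS cells over MEFs was -2.13 ± 0.066 (adjusted p = 1.06e-07), and no fold is given because the bound exceeded the fitted one. All 8 fibroblast markers were called lower in iPS cells than in MEFs, as were Fgf7, Fgf10 and Fgf18, and the part of fibroblast RNA in these differences was not tested.

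The remaining called ligands were lower than in ES cells on every array. Fgf17, from the same subfamily as Fgf8, read -1.65 and -1.35 on the iPS arrays and -2.01 and -2.12 on the MEF arrays. It was 2.83-fold lower in iPS than in ES cells (-1.499 ± 0.076, adjusted p = 1.54e-06), a call that was lost with the background model fitted over all spots although the value stayed at -1.49 (adjusted p = 0.145). It was at least 4.13-fold lower in MEFs than in ES cells (adjusted p = 2.20e-07), since no MEF array had it well above background. Against that MEF bound it was at least 1.34-fold higher in iPS cells than in MEFs under the reported processing and not called. The series' value table gave 1.53 and a call. The background model fitted over all spots gave the opposite sign, -0.43 (adjusted p = 0.729 in limma). The direction of Fgf17 between iPS cells and MEFs thus depended on the processing.

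Fgf21, a hormone of fasting metabolism in adult liver, read -2.09 and -2.14 on the iPS arrays and -1.74 and -1.54 on the MEF arrays. The groups did not overlap. Neither iPS array had it well above background. The fitted difference of iPS cells over MEFs was -0.47 ± 0.086 and not called, while the series' value table gave -1.73 and a call. No fold is given for this comparison because the bound exceeded the fitted one. Fgf21 was at least 4.29-fold lower in iPS than in ES cells (adjusted p = 8.65e-08), and 3.12-fold lower in MEFs than in ES cells (-1.64 ± 0.061, adjusted p = 2.18e-07). Its dimmer second probe stood at -0.68 in iPS and -0.71 in MEFs over ES cells and was not called. On that probe the groups overlapped, and the difference of iPS cells over MEFs was 0.03 ± 0.092.

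Fgf15, the mouse counterpart of human FGF19 in bile acid control, read -1.03 and -0.80 on the iPS arrays and -1.29 and -1.14 on the MEF arrays. It was at least 2.03-fold lower in MEFs than in ES cells (adjusted p = 2.14e-06), where no MEF array had it well above background. In iPS over ES cells the value of -0.91 ± 0.070 was not called, although it passed 2-fold when the second iPS array was left out (-1.03).

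Fgf2, the basic FGF used to culture primed pluripotent cells, read -0.02 and 0.00 on the iPS arrays and 0.30 and 0.36 on the MEF arrays. Neither iPS array had it well above background, and the green channel had it so on 2 of 4. The MEF arrays were both higher than the iPS arrays. The fitted difference of iPS cells over MEFs was -0.34 ± 0.067 and not called. No fold is given because the bound exceeded the fitted one. The uncalled Fgf1, Fgf3, Fgf9 and Fgf23 lay between -0.22 and 0.52 on the iPS arrays and between -0.46 and 0.51 on the MEF arrays. Fgf11 and Fgf13, FGF homologous factors that stay inside the cell and modulate sodium channels, were not called either, with brightest-probe values over ES cells of -0.37 and -0.34 in iPS cells and -0.67 and 0.07 in MEFs.

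Among the receptors, Fgfr1, the main FGF receptor of mesenchymal cells, was lower in iPS cells than in MEFs on all of its 4 tested probes. Its brightest probe (chr8:27039136-27039195) read -0.93 and -0.94 on the iPS arrays, against 0.31 and 0.40 on the MEF arrays. The arrays lay on opposite sides of the ES level, and iPS cells were 2.45-fold lower than MEFs (-1.29 ± 0.068, adjusted p = 1.64e-06). The other probes gave -1.31, -1.06 and -1.09, and the first of these overlaps the brightest probe. With the background model fitted over all spots, the brightest probe kept its call and the other probes lost theirs. Under the reported processing, neither value of the brightest probe over ES cells was called (-0.94 ± 0.048 in iPS cells and 0.35 ± 0.048 in MEFs).

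Fgfr2, the receptor that in epithelia binds Fgf7 and Fgf10, read -0.30 on both iPS arrays, against 0.84 and 0.75 on the MEF arrays. It was 2.14-fold lower in iPS cells than in MEFs (-1.10 ± 0.069, adjusted p = 4.18e-06), while its second tested probe, at -0.80, was under 2-fold. In MEFs over ES cells it stood at 0.80 ± 0.049, which became 1.01 and a call with median centring. Fgfr3, a receptor known for restraining bone growth, read 0.21 and 0.46 on the iPS arrays and -0.34 and -0.32 on the MEF arrays. Its iPS arrays were both above its MEF arrays, but the difference of 0.66 ± 0.095 was not called, and neither was that of its second probe (0.74).

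The 3 tested probes of Fgfr4, whose positions and sequences are given above, had 3 different patterns. The RefSeq transcript's probe A_51_P408100 read 1.35 and 1.29 on the iPS arrays and -0.49 and -0.30 on the MEF arrays. This was 2.49-fold higher in iPS than in ES cells (1.32 ± 0.059, adjusted p = 7.97e-07) and 3.29-fold higher in iPS cells than in MEFs (1.72 ± 0.084, adjusted p = 1.04e-06). The splice variant's probe A_52_P686383, with GGTAA, went the other way. It read 0.17 and 0.05 on the iPS arrays and 1.55 and 1.69 on the MEF arrays. This was 3.07-fold higher in MEFs than in ES cells (1.62 ± 0.057, adjusted p = 1.75e-07) and 2.85-fold lower in iPS cells than in MEFs (-1.51 ± 0.081, adjusted p = 1.76e-06). Both calls of this probe were lost with the background model fitted over all spots. The third, A_52_P144363, overlapped between groups at 0.14 and 0.22 on the iPS arrays and 0.16 and 0.20 on the MEF arrays (difference 0.00 ± 0.069, 95% interval -0.16 to 0.16).

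**Figure D4:**
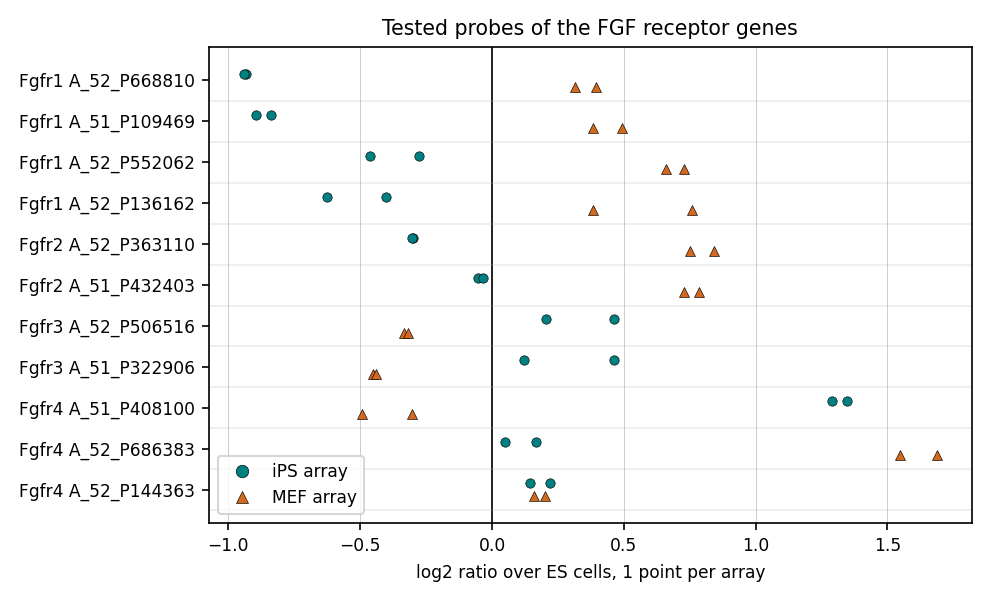
Log2 ratio over ES cells of the 11 tested probes of Fgfr1 to Fgfr4, with 1 point per array (circles iPS, triangles MEF). The 4 probes of Fgfr1 keep iPS left of MEF, while the first and second of the Fgfr4 probes have their groups in opposite order and those of the third overlap.

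The inhibitors of the Sprouty and Spred families, which act on the Ras and Raf steps, did not move as one. Spry1 (chr3:37835821-37835880) read 0.30 and 0.21 on the iPS arrays and 1.62 and 1.67 on the MEF arrays. It was 3.13-fold higher in MEFs than in ES cells (1.64 ± 0.050, adjusted p = 8.25e-08) and 2.62-fold lower in iPS cells than in MEFs (-1.39 ± 0.070, adjusted p = 1.28e-06). Spry2 was not called: its brightest probe read -0.68 and -0.58 on the iPS arrays and -0.87 and -0.75 on the MEF arrays, but its second probe had the opposite sign, 0.64 in iPS and 0.45 in MEFs over ES cells. Spry4 read 0.24 on both iPS arrays and 0.23 and 0.07 on the MEF arrays, and was not called.

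Spred1 read -1.004 and -1.11 on the iPS arrays and -0.20 and -0.28 on the MEF arrays. It was 2.08-fold lower in iPS than in ES cells (-1.06 ± 0.052, adjusted p = 1.27e-06), just past the threshold, and fell short of it with median centring (-0.81), with quantile normalization over channels (-0.995) and on its other 2 probes (-0.32 and -0.29). Spred3 read -1.05 and -1.30 on the iPS arrays and -0.36 and -0.24 on the MEF arrays. It was at least 2.25-fold lower in iPS than in ES cells (adjusted p = 3.55e-06) and not well above background on either iPS array. In iPS cells over MEFs the fitted -0.88 ± 0.099 was not called but reached -1.002 without the first iPS array. No fold is given there because the bound exceeded the fitted one. Spred2 was between -0.15 and 0.24 on all arrays and was not called.

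The MAP kinase phosphatases Dusp4 and Dusp6, which switch off ERK, were lower than in ES cells in both other RNAs. Dusp4 (chr8:36287508-36287567) read -3.73 and -3.77 on the iPS arrays and -2.28 and -2.21 on the MEF arrays, with no overlap. It was 13.4-fold lower in iPS than in ES cells (-3.75 ± 0.048, adjusted p = 5.64e-09), 4.73-fold lower in MEFs than in ES cells (-2.24 ± 0.048, adjusted p = 1.80e-08) and 2.84-fold lower in iPS cells than in MEFs (-1.51 ± 0.068, adjusted p = 7.03e-07). A second Dusp4 probe was left out because of a background flag on 1 MEF array. With marked spots kept it read -2.75 on both iPS arrays and -0.67 and -0.71 on the MEF arrays.

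Dusp6, the ERK-specific phosphatase (chr10:98697039-98697098), read -2.83 on both iPS arrays and -2.26 and -2.30 on the MEF arrays. It was 7.11-fold lower in iPS than in ES cells (-2.83 ± 0.047, adjusted p = 9.09e-09) and 4.85-fold lower in MEFs than in ES cells (-2.28 ± 0.047, adjusted p = 1.48e-08). The groups did not overlap, but iPS cells over MEFs gave -0.55 ± 0.066, under 2-fold.

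The transcription factors downstream of the cascade split. Egr1, an immediate early gene induced within minutes by ERK, read -3.70 and -3.68 on the iPS arrays and -0.44 and -0.54 on the MEF arrays. It was 12.9-fold lower in iPS than in ES cells (-3.69 ± 0.050, adjusted p = 5.99e-09) and 9.21-fold lower in iPS cells than in MEFs (-3.20 ± 0.070, adjusted p = 2.43e-08). In MEFs over ES cells it stood at -0.49 ± 0.050 and was not called.

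Etv5, an ETS factor that FGF signalling induces in many tissues, went the other way and read 0.83 and 0.86 on the iPS arrays, against -1.19 and -1.16 on the MEF arrays. It was 4.06-fold higher in iPS cells than in MEFs (2.02 ± 0.066, adjusted p = 1.36e-07) and 2.26-fold lower in MEFs than in ES cells (-1.18 ± 0.047, adjusted p = 3.05e-07). The second of these calls was lost with median centring (-0.998). Its second probe gave 1.98 in iPS cells over MEFs and -1.58 in MEFs over ES cells. In iPS over ES cells the brightest probe stood at 0.84 ± 0.047, not called, and at 1.03 and called with median centring. The second probe was also under 2-fold there, with mean log2 intensities of 8.63 in iPS and 8.23 in ES cells. Etv4, a close relative of Etv5, read -0.01 and 0.04 on the iPS arrays and -0.69 and -0.57 on the MEF arrays. The groups did not overlap, and 0.65 ± 0.074 in iPS cells over MEFs was under 2-fold.

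The other 21 probes were not tested, 13 of them too dim and 8 of them marked as outliers on at least 1 array. This left 8 genes without a tested probe, namely Fgf6, Fgf12, Fgf14, Fgf16, Fgf20, Fgf22, Spry3 and Fgfrl1. Fgfrl1, a receptor that lacks the kinase domain, was bright in all 3 RNAs but carried a background flag on both MEF arrays. No probe of an FGF pathway gene was saturated. Calls differed between the tested probes of 4 of the 12 genes that had more than 1.

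Genes of the pathway outside these families were read from 3 lists, each gene by its brightest tested probe. Among all 17241 tested genes, read the same way, 17.0% were higher and 19.1% lower in iPS cells than in MEFs (median 0.02), 9.09% higher and 11.9% lower in iPS than in ES cells (0.00), and 14.0% higher and 13.7% lower in MEFs than in ES cells (-0.01). Adaptors and kinases of the cascade were mostly not called, as were most of all tested genes, of which 36.1%, 21.0% and 27.7% were called in these 3 comparisons. Of 24 tested, 2 were higher and 4 lower in iPS cells than in MEFs (median -0.20), 2 higher and 4 lower in iPS than in ES cells (-0.07), and 2 higher and 3 lower in MEFs than in ES cells (0.05). The largest differences of iPS cells over MEFs were in the docking protein Gab1 (3.25 ± 0.066), the kinase Rps6ka1 (3.08 ± 0.075) and the phosphatase Ptpn11 (-1.66 ± 0.065). In iPS over ES cells they were in Rps6ka1 (1.31 ± 0.053), the scaffold Ksr1 (1.21 ± 0.049) and Rps6ka3 (-1.19 ± 0.050). In MEFs over ES cells they were in Gab1 (-2.70 ± 0.047), the FGF receptor substrate Frs2 (1.85 ± 0.048) and Rps6ka1 (-1.77 ± 0.053).

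Extracellular genes of the pathway, such as heparan sulfate proteoglycans and the enzymes that build them, included the widest differences between iPS cells and MEFs among the 3 lists. Of 23 tested, 3 were higher and 16 lower in iPS cells than in MEFs (median -2.01), 2 higher and 9 lower in iPS than in ES cells (-0.74), and 13 higher and 1 lower in MEFs than in ES cells (1.12). Hs6st2, a heparan sulfate sulfotransferase, read -3.64 and -3.70 on the iPS arrays, against 1.84 and 1.78 on the MEF arrays, a difference of -5.48 ± 0.069. Flrt2, a membrane protein of the same family as Flrt3, was called lower in iPS cells than in MEFs. It was not well above background on either iPS array, and no fold is given because the bound exceeded the fitted one. The syndecan Sdc3 stood at -4.15 ± 0.080. In iPS over ES cells the leading genes were Hs6st2 (-3.67 ± 0.049), the sulfatase Sulf1 (-3.20 ± 0.048) and the syndecan Sdc4 (2.60 ± 0.066). In MEFs over ES cells they were Flrt2 (4.15 ± 0.065), Sdc2 (2.88 ± 0.046) and the FGF-binding protein Fgfbp1 (-2.78 ± 0.047). With the background model fitted over all spots, 1 gene of this list was higher and 9 lower in iPS cells than in MEFs, and the median was -1.78. In that setting 10.6% of all tested probes were called in iPS cells over MEFs. The fibroblast marker sums above ran in the same order as these medians, highest in MEFs and lowest in iPS cells, and their part was not tested.

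Further feedback and early response genes were lower in iPS cells or not called, apart from Dusp2 against MEFs, which was higher in iPS cells (1.22) but stood at -0.25, not called, with the background model fitted over all spots. Of 15 tested, 1 was higher and 8 lower in iPS cells than in MEFs (median -1.01), 0 higher and 9 lower in iPS than in ES cells (-1.20), and 5 higher and 4 lower in MEFs than in ES cells (0.11). The largest differences of iPS cells over MEFs were in the ETS factor Elk3 (-4.35 ± 0.070), the AP-1 member Fosl1 (-3.38 ± 0.088) and Ier3 (-3.18 ± 0.069). In iPS over ES cells they were in the AP-1 member Junb (-3.13 ± 0.049), the FGF antagonist Il17rd (-2.67 ± 0.047) and Elk3 (-2.47 ± 0.050). Il17rd also led in MEFs over ES cells (-3.24 ± 0.047), before Dusp2 (-2.996 ± 0.064) and Ier3 (2.22 ± 0.049). The called genes of all 3 lists named here had adjusted p between 4.59e-09 and 5.67e-07 in limma. Of the 50 calls among the 22 list genes given by name, 30 were lost with the background model fitted over all spots, besides that of Dusp2.

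**Figure D5:**
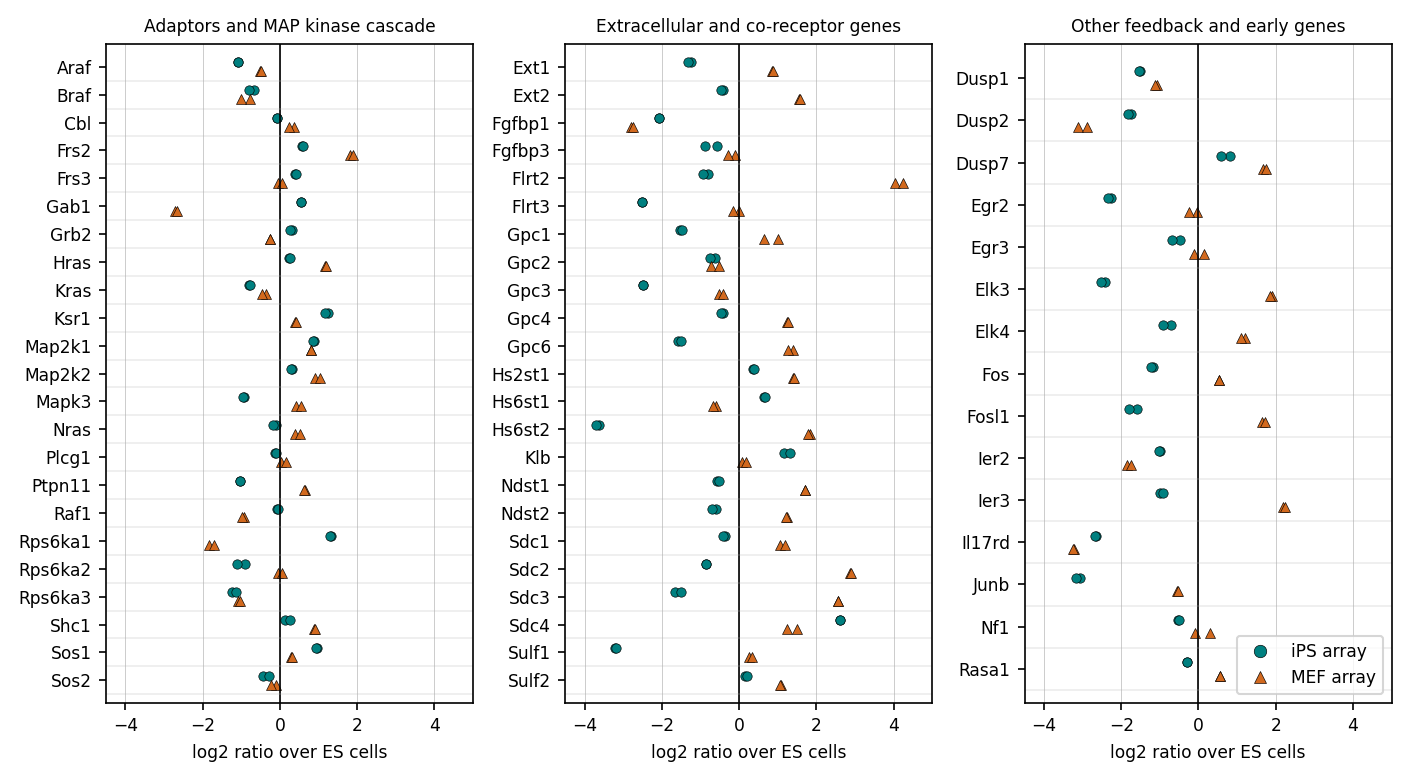
Log2 ratio over ES cells of tested genes of 3 lists (23 of the 24 cascade genes, 23 extracellular and co-receptor genes, 15 feedback and early genes), with 1 point per array (circles iPS, triangles MEF). In the middle panel most MEF points stand right of 0 and most iPS points left of it, and in the right panel Junb, Il17rd and Elk3 are the furthest left for iPS cells.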

How the data were processed

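Total RNA was measured on 4 Agilent 2-colour arrays of 1 slide, scanned together. The labelling used an Agilent kit on 1 µg RNA per channel, per the labels' protocols. Per the file headers, the authors read spots with Agilent Feature Extraction 10.5.1.1. The deposited files hold the mean intensity and local background intensity of each spot, and a log10 ratio of red over green from signals that the software had background-subtracted and dye-normalized (LOWESS smoothing 0.25). The series' values were identical to that log10 ratio, so their scale and direction were known.

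Background was removed from the mean signals with normexp (offset 50), its parameters estimated on spots not marked as outliers, and the ratios were normalized within arrays by loess (span 0.3, controls at weight 0) in limma 3.58.1 (R 4.3.3, with version 1.17.8 of data.table). Log2 ratios computed from the deposited intensities were averaged over the spots of a probe. Spots marked for the feature or its background were left out. A probe was tested if well above background in at least 1 RNA on all of its arrays and with a value on all 4. lmFit and eBayes used all 4 arrays with a coefficient per group (2 residual and 4.91 prior degrees of freedom). The number of arrays limits the precision. The fit was tested on simulated data. Coordinates are those of the array's annotation, not converted; exons and UTRs are not assigned.

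The FGF genes, the lists, the tests and the order of background fit and outlier removal were chosen with earlier results of these data known. Genes named were those called in at least 1 of 3 comparisons and a preset set of well known members where tested, and per list and comparison the 3 called genes furthest from 0. Of the cascade list, 1 gene is not reported here by name. Alternatives covered background model, marked spots, normalization, filter, probe choice, replicate block and left-out arrays.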

Additional observations from a re-analysis of the deposited data

Results flagged for a closer look

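In 13 of the 30 genes both iPS arrays lay on one side of the ES level and both MEF arrays on the other. The same share over all tested genes is not given, so the count is not read as a trait of these genes. Some of the 13 had an array close to 0, such as Fgf2 at -0.0005 (iPS) and Fgf13 at 0.01 (MEF). The iPS signals of Fgf2, Fgf9 and Fgf23 and the MEF signal of Fgf3 were not well above background. The side of the ES level is therefore not firm for these genes. The difference between iPS cells and MEFs was tested directly in limma and called in 6 of the 13. The 13 were picked by the same values, and 36.1% of all 17241 tested genes were called in this comparison. It was -2.13 for Fgf10, whose iPS signal was not well above background, -2.27 for Fgf18, -1.29 for Fgfr1 and -1.10 for Fgfr2. It was 1.72 for the RefSeq probe of Fgfr4, with another Fgfr4 probe at -1.51, and 2.02 for Etv5. The adjusted p of these 6 lay between 1.06e-07 and 4.18e-06.

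Fgfrl1 had a signal that the comparisons did not use, because its only probe was marked for its local background on both MEF arrays. With the marked spots kept and the background model taken from unmarked spots, it read -0.97 and -1.005 on the iPS arrays, against 0.65 and 0.68 on the MEF arrays, a difference of -1.65 (limma adjusted p = 4.87e-07).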

How the results depend on the processing

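No call of the 30 FGF pathway genes turned its sign under the alternatives run. Among the calls of 22 named list genes, that of Dusp2 in iPS cells over MEFs did, at -0.249 with the background model fitted over all spots and -0.246 with marked spots kept. With the background model fitted over all spots, 0 members were higher and 0 lower in MEFs over ES cells (limma; 3 at an unadjusted p under 0.05, and 0 of all 24874 probes called, 2392 at that unadjusted p), and 1 higher and 4 lower in iPS cells over MEFs. Of all probes, 10.6% were called in iPS cells over MEFs with that fit. On the array of MEF replicate 1, 14 marked spots with a local background above 500 entered it. With marked spots kept as well, the counts were 0 and 1 in MEFs over ES cells and 1 and 5 in iPS cells over MEFs. Of all probes, 0.72% and 11.1% were then called in these comparisons. Of 90 gene values (30 genes, 3 comparisons), 17 and 16 lost their call in these settings. In both, the calls of Fgf7, Fgf10, Fgfr2, Spry1, Dusp4 and Etv5 in iPS cells over MEFs and of Fgf17 in iPS over ES cells were lost, while those of Fgf5, Fgf18, Fgfr1, Fgfr4 and Egr1 in iPS cells over MEFs were kept. With marked spots kept and the model from unmarked ones, chosen after seeing the data, counts were 4 and 9 in MEFs over ES cells. The series' value table called more, with 8 higher and 12 lower in MEFs over ES cells and 5 higher and 17 lower in iPS over ES cells. In iPS cells over MEFs it gave 7 higher and 20 lower, and 21 gene values gained a call. More of all probes were called there too, at 41.6%, 33.8% and 50.2% in these comparisons. The reported processing called 25.2%, 18.7% and 33.1%. Requiring every channel well above background left 2 higher in MEFs over ES cells. Median centring moved the median of all probes to 0.14 in iPS and 0.16 in MEFs over ES cells. It gave 2 higher in iPS over ES cells, and moved the share of higher among all calls to 61.5% in iPS over ES cells, against 42.8% with loess, and to 70.0% in MEFs over ES cells, against 50.6%. The cause of these shifts was not tested. Leaving out 1 array gave 12 to 14 lower and 3 higher in iPS cells over MEFs, 11 to 12 lower and 1 higher in iPS over ES cells, and 9 lower and 4 higher in MEFs over ES cells, where a lone array was assumed to vary like the others. The replicate numbers shared no batch in the labels, and same-numbered arrays deviated with a correlation of -0.11. With the replicate number as a block, counts were 3 and 13 (iPS over MEF), 1 and 11 (iPS over ES) and 4 and 9 (MEF over ES), the same as without it, and crossing the numbers, also chosen after seeing the data, gave the same counts. Quantile normalization over channels, chosen likewise, took the call of 1 gene value. Aquantile leaves log ratios as they are by construction. The offset compresses ratios of genes near the background.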

Other observations

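Among co-receptor and adhesion genes of the lists, chosen here after their values were seen, Klb (beta-Klotho, the co-receptor of the hormone-like FGFs) was well above background on the iPS arrays alone. It read 1.17 and 1.33 on the iPS arrays, against 0.08 and 0.18 on the MEF arrays, at least 2.37-fold higher in iPS than in ES cells. Klb passed the brightness filter through its iPS signal alone and was picked by its values, so no p-value is given. Flrt3, a membrane protein that binds FGF receptors, read -2.51 on both iPS arrays and -0.01 and -0.16 on the MEF arrays. The glypican Gpc3 read -2.50 and -2.49 on the iPS arrays and -0.51 and -0.41 on the MEF arrays.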
